A study of Mus musculus with 6 samples.

Results

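The transcripts described here encode 10 receptor tyrosine kinases: the collagen receptors Ddr1 and Ddr2, the TAM family members Axl, Mertk and Tyro3, and Met, Insr, Ntrk2, Tek and Kit. They are 10 of the 31401 genes in the deposited table. They were matched by gene symbol, and the set had been chosen with the ZM and Ctrl values of these libraries already known. Their own values are therefore given as a description, without a test. Ligands, partners and related genes, which are not among the 10, carry tests. Their lists were also chosen with earlier results of these data known, so the shares called in a list are a description.

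Bulk mRNA sequencing was done on primary osteoblasts from the calvaria, the flat skull bones, of wild-type C57BL/6 pups aged 3 days. ZM cultures (3 libraries) were kept for 6 days in osteogenic induction medium with 10 μM ZM, and Ctrl cultures (3 libraries) had the same medium and time without ZM. ZM stands for ZM-306416, a kinase inhibitor described as acting on the receptors for VEGF and EGF. All 6 libraries carry the same batch label, and no label tells whether libraries come from separate cultures. The p-values therefore cover just the variation among the libraries at hand, and that may be technical.

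Receptor tyrosine kinases span the cell membrane once, bind a ligand outside the cell and phosphorylate tyrosines inside it, which recruits adaptor proteins. DDR1 and DDR2 are unusual in that their ligand is triple-helical collagen, the main protein of bone matrix, and loss of Ddr2 in mice leaves short bones. The TAM receptors bind GAS6 and PROS1, which bridge them to phosphatidylserine on dying cells, and MET, INSR, NTRK2, TEK and KIT bind hepatocyte growth factor, insulin and insulin-like growth factors, BDNF, angiopoietins and stem cell factor in that order.

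Libraries held 44714005 to 57020669 counts with ZM and 42721326 to 69867931 in Ctrl. Levels are given as CPM (counts scaled to library size) or, to compare genes with each other, as the deposited FPKM (per kilobase of exon). By edgeR's quasi-likelihood test at an adjusted p threshold of 0.05, 45.3% of 17533 tested genes were called, 22.8% higher and 22.4% lower with ZM, and 54.2% of tested genes had groups that did not overlap. The median log2 fold change over all tested genes was -0.00. Of the calls 50.4% were higher with ZM, and 62.2% were when libraries were scaled by their totals alone. Of 6 osteoblast markers 5 were tested and 3 rose, among them Alpl, the bone alkaline phosphatase, at 30.9 CPM with ZM and 2.60 CPM in Ctrl. Col1a1 was at 8774 CPM with ZM and 8890 CPM in Ctrl, and Bglap, the osteocalcin gene, had at most 6 counts with ZM and at most 9 counts in Ctrl. The 10 macrophage markers had a summed level of 10246 to 11394 CPM with ZM and 19337 to 20230 CPM in Ctrl, so both groups held macrophage transcripts. Most of this sum was Lyz2, at 8668 CPM with ZM and 16444 CPM in Ctrl. Log2 fold changes of the 10 ran from -0.22 for Ptprc to -1.10 for Itgam. Exons of Gm49368 on the same strand cover 68.7% of Itgam, so its counts are uncertain. The next largest fall was -0.93 for C1qa. In such bulk libraries fewer cells of a type and less RNA per cell cannot be told apart.

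Of the 10 kinases, 9 passed the filter on low counts and Kit did not. The log2 fold change was above 0 for 7 of the 9 and below 0 for Axl and Tyro3, with a median of 0.29. The groups did not overlap for 8 of the 9. These counts describe genes that were selected on the same contrast, and nothing is read from them against the background of 54.2% not overlapping.

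**Figure D1:**
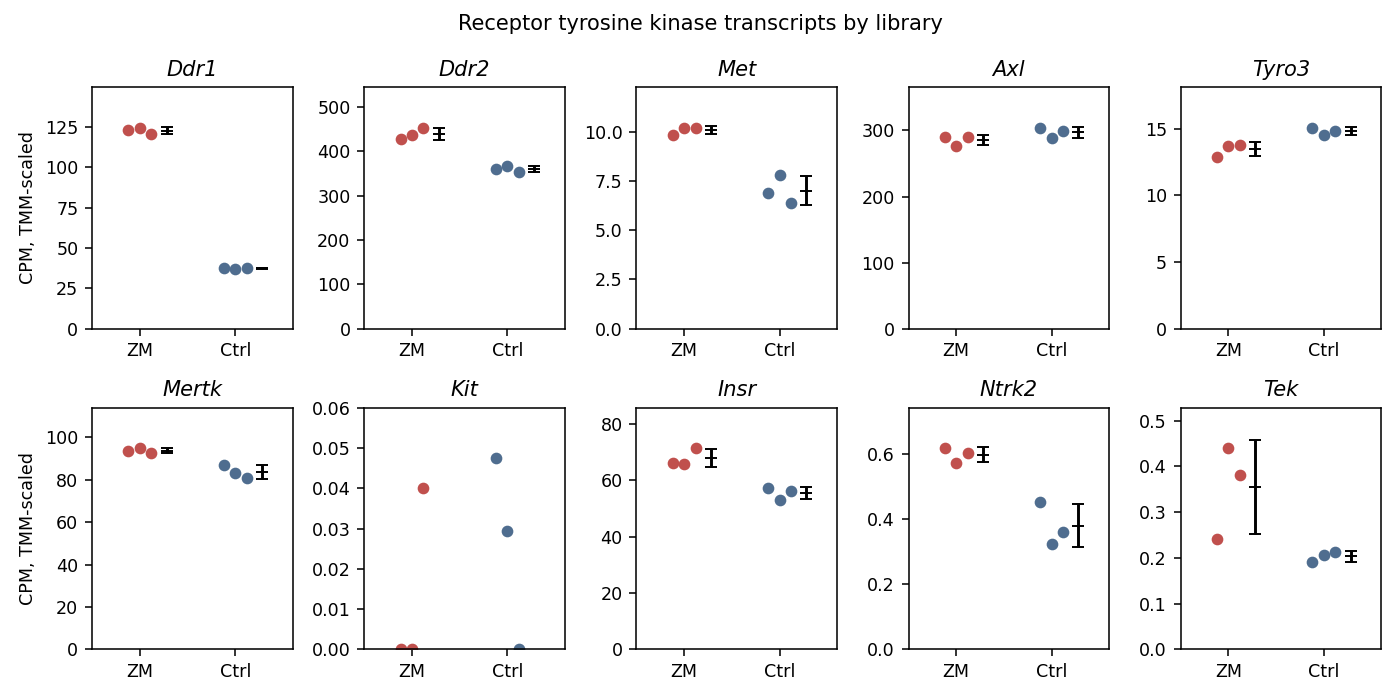
Level of each of the 10 kinases in CPM, one panel per gene with its own axis starting at 0, with ZM libraries left of Ctrl libraries; points are libraries and bars the mean ± SD (n = 3, not drawn for Kit). Ddr1 stands at 120 to 125 CPM with ZM and 36.9 to 37.6 CPM in Ctrl, the Axl groups overlap, and Kit lies at 2 counts or fewer in every library.

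Ddr1 is the member with the widest gap between the groups, and Met is the member with the next largest log2 fold change among those well above the filter, so all promoter windows of these genes are shown. Each runs from 250 bases before to 50 bases after a RefSeq start site (GRCm38.p6), is written 5′ to 3′ on the gene's strand, and has in capitals every match, on either strand, to 5 motifs: the AP-1 site TGANTCA, the Runx site TGTGGT, the GC box GGGCGG, the TATA box TATAAA and the E-box CAGCTG. RefSeq gives Ddr1 4 start sites, and counts per gene do not say which was used. Window 1 of Ddr1, at chr17:35704550-35704849 on the minus strand, has a GC box, an E-box and, as its reverse complement, a Runx site, with 55.7% G and C. Window 2, at chr17:35704090-35704389, has no match and 57.3% G and C. Window 3, at chr17:35701995-35702294, has an AP-1 site and a GC box and 62.0% G and C, and window 4, at chr17:35700541-35700840, has 3 GC boxes and an E-box and 77.7% G and C. The Met window, at chr6:17463707-17464006 on the plus strand, has 3 GC boxes and an AP-1 site and 75.7% G and C.
Ddr1 window 1: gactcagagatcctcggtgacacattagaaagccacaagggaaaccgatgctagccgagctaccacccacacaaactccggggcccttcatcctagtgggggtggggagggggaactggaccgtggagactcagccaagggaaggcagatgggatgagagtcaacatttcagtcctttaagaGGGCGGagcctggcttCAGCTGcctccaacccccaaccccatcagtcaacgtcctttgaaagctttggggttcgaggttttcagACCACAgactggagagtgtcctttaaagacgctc
Ddr1 window 2: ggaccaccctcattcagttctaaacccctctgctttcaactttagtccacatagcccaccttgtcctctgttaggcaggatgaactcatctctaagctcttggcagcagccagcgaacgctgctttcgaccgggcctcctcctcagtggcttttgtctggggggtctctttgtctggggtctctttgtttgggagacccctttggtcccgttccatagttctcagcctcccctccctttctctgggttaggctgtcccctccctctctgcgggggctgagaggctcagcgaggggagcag
Ddr1 window 3: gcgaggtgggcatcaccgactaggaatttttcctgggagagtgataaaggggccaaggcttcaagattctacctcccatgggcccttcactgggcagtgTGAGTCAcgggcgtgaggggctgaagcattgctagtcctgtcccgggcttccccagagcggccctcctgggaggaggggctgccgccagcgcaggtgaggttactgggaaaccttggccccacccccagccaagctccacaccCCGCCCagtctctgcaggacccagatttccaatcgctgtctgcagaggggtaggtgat
Ddr1 window 4: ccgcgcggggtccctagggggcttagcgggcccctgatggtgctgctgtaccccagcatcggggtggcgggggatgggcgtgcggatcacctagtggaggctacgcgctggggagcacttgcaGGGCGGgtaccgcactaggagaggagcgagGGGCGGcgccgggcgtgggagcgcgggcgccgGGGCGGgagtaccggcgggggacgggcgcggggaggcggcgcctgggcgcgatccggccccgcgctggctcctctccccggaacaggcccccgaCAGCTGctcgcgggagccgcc
Met: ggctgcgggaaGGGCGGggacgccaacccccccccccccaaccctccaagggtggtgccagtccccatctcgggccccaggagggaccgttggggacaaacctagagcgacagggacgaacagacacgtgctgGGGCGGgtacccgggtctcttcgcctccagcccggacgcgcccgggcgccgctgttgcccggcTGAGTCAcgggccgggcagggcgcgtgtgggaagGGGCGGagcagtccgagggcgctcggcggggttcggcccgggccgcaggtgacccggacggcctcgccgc

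Across all 32851 RefSeq promoter windows the AP-1 letters occurred in 7.81%, the Runx letters in 16.8%, the GC box in 35.7%, the TATA box in 13.6% and the E-box in 16.3%. RefSeq windows were found for 9 of the 10 kinases, 13 windows in all, and Insr had no entry. AP-1 letters were in windows of 2 of these 9 genes (1 of 4 Ddr1 windows and Met), Runx letters in 2 (Ddr1 and Ntrk2), a GC box in 7, TATA letters in 1 (Ddr2) and the E-box in 1 (Ddr1). The shares over all windows are per window. Counted that way, in the same order, the motifs were in 2, 2, 10, 1 and 2 of the 13 windows. The Ddr2 window lies at an internal start, 21557 and 21617 bases downstream of the starts of its other principal transcripts in GENCODE. A further principal transcript of Met starts 27284 bases downstream of the start site used for Met. None of those other starts was searched. A match is only a run of letters, and no binding was measured.

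Ddr1 (ENSMUSG00000003534, chr17:35681567-35704621, minus strand) encodes a collagen receptor that in most tissues is made mainly by epithelial cells. It stood at 123, 125 and 120 CPM in ZM libraries, against 37.4, 36.9 and 37.6 CPM in Ctrl libraries. Every ZM library was far above every Ctrl library, and the spread within a group was small beside the gap. The means were 123 ± 2.12 CPM with ZM and 37.3 ± 0.354 CPM in Ctrl (SD, n = 3 each), or 3.29-fold and 1.72 ± 0.04 (SE) on the log2 scale. The counts behind these levels were 5666 to 7176 with ZM and 1572 to 2504 in Ctrl. Exons of Gm4577 on the opposite strand cover 4.52% of the exon bases of Ddr1, and since no strand setting is given, reads there could belong to either gene. The 6 epithelial markers in the table summed to 0.660 to 0.892 CPM with ZM and 2.77 to 3.32 CPM in Ctrl. Most of this sum was the cadherin Cdh1, the single marker tested. Cdh1 fell to 0.694 CPM with ZM, against 2.93 CPM in Ctrl (log2 fold change -2.06 ± 0.19, adjusted p = 1.2e-07, edgeR). The other 5 (Epcam, Krt8, Krt18, Krt5 and Krt14) had at most 6 counts in a ZM library and 8 in a Ctrl library. Epcam and Krt5 were at 0 in all 3 Ctrl libraries, and Krt8 at 0 in all 3 ZM libraries and 2 Ctrl libraries. The part of epithelial transcripts in the Ddr1 difference was not tested.

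Ddr2 (ENSMUSG00000026674, chr1:169972307-170110762, minus strand), the discoidin receptor of mesenchymal cells and the one for which fibrillar collagen is the main ligand, was far more abundant and differed far less. Its level was 427, 436 and 454 CPM with ZM and 360.5, 368 and 353 CPM in Ctrl. All ZM libraries were above all Ctrl libraries, by more than the range within either group. The mean was 439 ± 13.5 CPM with ZM and 360.4 ± 7.52 CPM in Ctrl (SD, n = 3 each), or 1.22-fold and 0.28 ± 0.03 (SE) on the log2 scale.

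Per kilobase of exon the balance of the collagen receptors differed. In FPKM, Ddr1 was 55.9%, 55.5% and 51.5% of the level of Ddr2 in ZM libraries, against 20.1%, 19.5% and 20.7% in Ctrl libraries. No ZM library came near a Ctrl library. Ddr1 made up 35.2% ± 1.03 of the summed FPKM of both receptors with ZM and 16.7% ± 0.418 in Ctrl, and that sum was 74.6 ± 1.15 FPKM with ZM and 45.7 ± 0.482 FPKM in Ctrl (SD, n = 3 each). FPKM takes 1 exon length per gene, so a different use of isoforms between the groups would also move this ratio, and it was not measured.

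**Figure D2:**
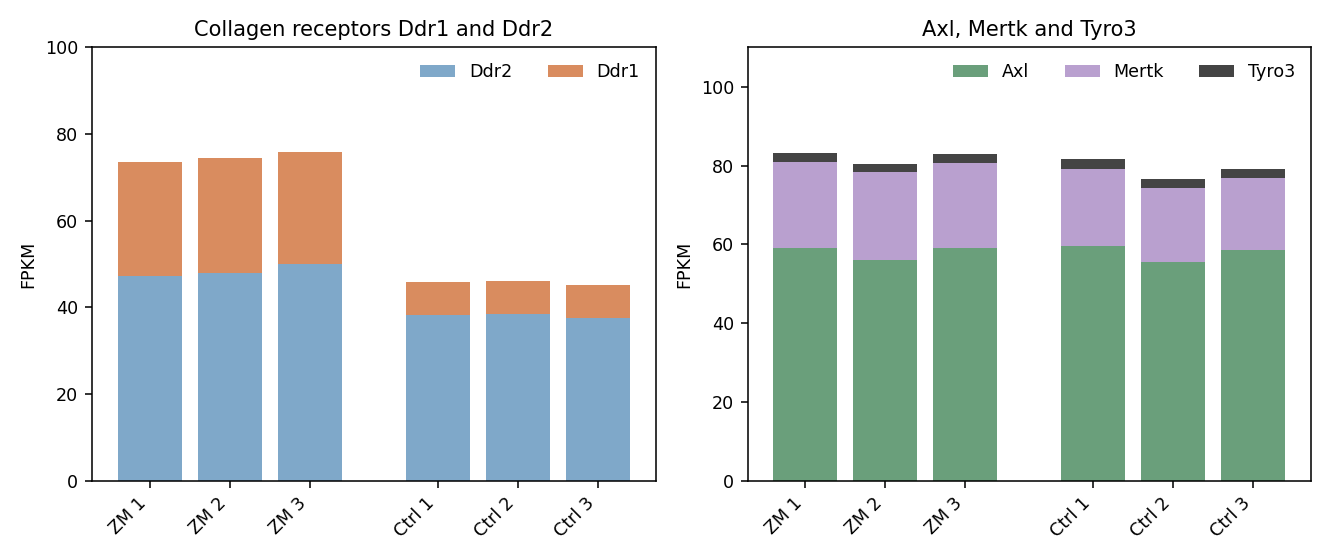
Stacked bars of deposited FPKM in each library, ZM libraries left of Ctrl libraries; the left panel stacks Ddr1 on Ddr2, and the right panel stacks Tyro3 and Mertk on Axl. Ddr1 and Ddr2 sum to 74.6 ± 1.15 FPKM with ZM and 45.7 ± 0.482 FPKM in Ctrl, while the Axl segment is about the same height in all libraries.

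By levels over the 6 libraries, the genes whose pattern was most like that of Ddr1 were Gpx3, Islr and Fzd5, by the Euclidean distance between mean-centred log2 CPM among 12105 genes with a mean of at least 1 FPKM. Gpx3, a secreted glutathione peroxidase, lay at a distance of 0.0802 and averaged 656 CPM with ZM and 196 CPM in Ctrl. Islr, an immunoglobulin and leucine-rich repeat protein of stromal cells, followed at 0.116 (97.4 CPM with ZM and 29.1 CPM in Ctrl), and the Wnt receptor Fzd5 at 0.120 (70.1 CPM with ZM and 21.8 CPM in Ctrl). Exons of Gm38058 on the opposite strand cover 17.8% of Fzd5, and exons of Islr2 on the same strand cover 6.74% of Islr. Closest to Ddr2 were Armcx2 at 0.0252, the mitochondrial methionyl-tRNA synthetase Mars2 at 0.0425 and the actin-binding protein gene Lima1 at 0.0454. These are likenesses over 6 libraries that share 1 contrast, given as a description.

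The collagen genes, ligands of DDR1 and DDR2, moved in both directions: of 10 tested chains 2 rose, 4 fell and 4 did not pass, with a median log2 fold change of -0.05. The share called was 60%, against 45.3% of all tested genes. Col8a1, a short-chain network collagen, rose to 901 ± 16.6 CPM with ZM, against 640.4 ± 5.92 CPM in Ctrl (log2 fold change 0.49 ± 0.03, adjusted p = 1.2e-09, edgeR). Col5a1 rose less, to 1159 CPM with ZM against 1052 CPM in Ctrl (0.14 ± 0.04, adjusted p = 0.0051, edgeR). The basement membrane chains Col4a1 (-0.26 ± 0.03) and Col4a2 (-0.24 ± 0.04 by edgeR) and the fibrillar chain Col5a2 (-0.26 ± 0.03) were the largest falls on the log2 scale. Their adjusted p-values ran from 3.3e-06 to 2.9e-05 in edgeR. Col1a1, the main fibrillar chain of bone, was not called (-0.02 ± 0.04, adjusted p = 0.70, edgeR).

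Other collagen receptors give the same ligand another reader. Of 11 listed, 10 were tested, 5 rose, 4 fell, and the median log2 fold change was 0.20. Calls made up 90% of those tested, against 45.3% of all tested genes. On log2(FPKM + 1) in limma the split was 5 rises and 2 falls, and 62.8% of that fit's calls over all genes were higher. Itga11, the integrin chain that binds fibrillar collagen on stromal cells, rose to 281 ± 12.9 CPM with ZM, against 109 ± 7.80 CPM in Ctrl (1.37 ± 0.05, adjusted p = 4.3e-10, edgeR). Itga1, another collagen-binding integrin chain, rose to 52.8 CPM with ZM, against 25.7 CPM in Ctrl (1.04 ± 0.06, adjusted p = 1.9e-10, edgeR). The collagen-binding chains Itga10 and Itga2 fell but lay below 1 FPKM and are named after their values were seen. Itga10 changed by -0.84 ± 0.15 (adjusted p = 0.00018) and Itga2 by -0.58 ± 0.18 (adjusted p = 0.016, edgeR). Exons of Gm42957 on the same strand cover 33.5% of Itga10. Oscar, a collagen receptor of osteoclasts, rose to 5.03 ± 0.434 CPM with ZM, against 0.882 ± 0.337 CPM in Ctrl (2.47 ± 0.20, adjusted p = 1.3e-07, edgeR). All 6 osteoclast markers rose too, with a summed level of 1026 to 1051 CPM with ZM and 499.5 to 533 CPM in Ctrl. Most of this sum was Ctsk, at 582 CPM with ZM and 434 CPM in Ctrl. The median log2 fold change of the 6 was 3.33. The falls were led by Mrc1, the collagen-internalising mannose receptor of macrophages (540.0 CPM with ZM and 1003 CPM in Ctrl, log2 fold change -0.89 ± 0.04, adjusted p = 1.9e-10, edgeR), beside the 10 of 10 macrophage markers that fell. The integrin chain Itgb1 fell by less (-0.21 ± 0.03, adjusted p = 3.2e-05, edgeR). The part of osteoclast and macrophage transcripts in these differences was not tested.

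Axl (ENSMUSG00000002602, chr7:25757273-25788705, minus strand), the TAM receptor that binds GAS6 alone, was the most abundant of the 10 per kilobase and the one that differed least between the groups. It was at 290.3, 277 and 290.5 CPM in ZM libraries and at 304, 288 and 299 CPM in Ctrl libraries. The ranges overlapped, the lowest Ctrl library lying below the 2 higher ZM libraries. The log2 fold change was -0.06 ± 0.03 (SE), and its sign turned (0.00, just above 0) when libraries were scaled by their totals alone. In FPKM the means were 58.0 ± 1.72 with ZM and 57.9 ± 1.99 in Ctrl (SD, n = 3 each).

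Mertk (ENSMUSG00000014361, chr2:128698956-128802894, plus strand), the TAM receptor that macrophages use to engulf dying cells, was at 93.5, 94.9 and 92.6 CPM with ZM and at 87.0, 83.1 and 80.6 CPM in Ctrl. All ZM libraries were above all Ctrl libraries, with a gap a little narrower than the range of the Ctrl libraries. This is 1.12-fold, or 0.17 ± 0.04 (SE) on the log2 scale. Over the same libraries each of the 10 macrophage markers fell, with the sums given above, so Mertk ran against that list, and the part of macrophage transcripts in its level was not tested.

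Tyro3 (ENSMUSG00000027298, chr2:119797733-119818104, plus strand), the TAM receptor best known from the nervous system, was the only 1 of the 9 whose ZM libraries were all below the Ctrl libraries in CPM. It was at 12.9, 13.7 and 13.8 CPM with ZM and at 15.1, 14.5 and 14.9 CPM in Ctrl. The gap was a little narrower than the range of the ZM libraries, and the log2 fold change was -0.14 ± 0.07 (SE). As shares of the summed FPKM of the family, Axl took 70.5% ± 0.820 with ZM and 73.2% ± 0.655 in Ctrl, Mertk 26.8% ± 0.745 with ZM and 23.9% ± 0.665 in Ctrl, and Tyro3 2.70% ± 0.124 with ZM and 2.96% ± 0.0242 in Ctrl (SD, n = 3 each).

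The TAM ligand Gas6 rose where its main receptor hardly differed. Gas6 was at 1294, 1344 and 1295 CPM with ZM and at 663, 701 and 695 CPM in Ctrl, so every ZM library was far above every Ctrl library (log2 fold change 0.93 ± 0.03, 1.91-fold, adjusted p = 1.0e-12, edgeR). The FPKM of Gas6 was 9.06 ± 0.448 times that of Axl with ZM and 4.56 ± 0.251 times in Ctrl (SD, n = 3 each). Pros1, the other TAM ligand and an anticoagulant of plasma, was at 195 ± 5.21 CPM with ZM and 189.8 ± 5.13 CPM in Ctrl and was not called (0.04 ± 0.04, adjusted p = 0.38, edgeR). It passed on library totals alone (0.10, adjusted p = 0.027) and in the 2 limma fits on filtered FPKM (0.10, adjusted p = 0.039 each), but not on unfiltered FPKM, with adjusted p-values of 0.027 to 0.74 over all 15 alternatives. Tulp1, a phagocytosis ligand of MERTK, was near the filter bound at 0.240 CPM with ZM and 0.230 CPM in Ctrl, and was not called (adjusted p = 0.86, edgeR).

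**Figure D3:**
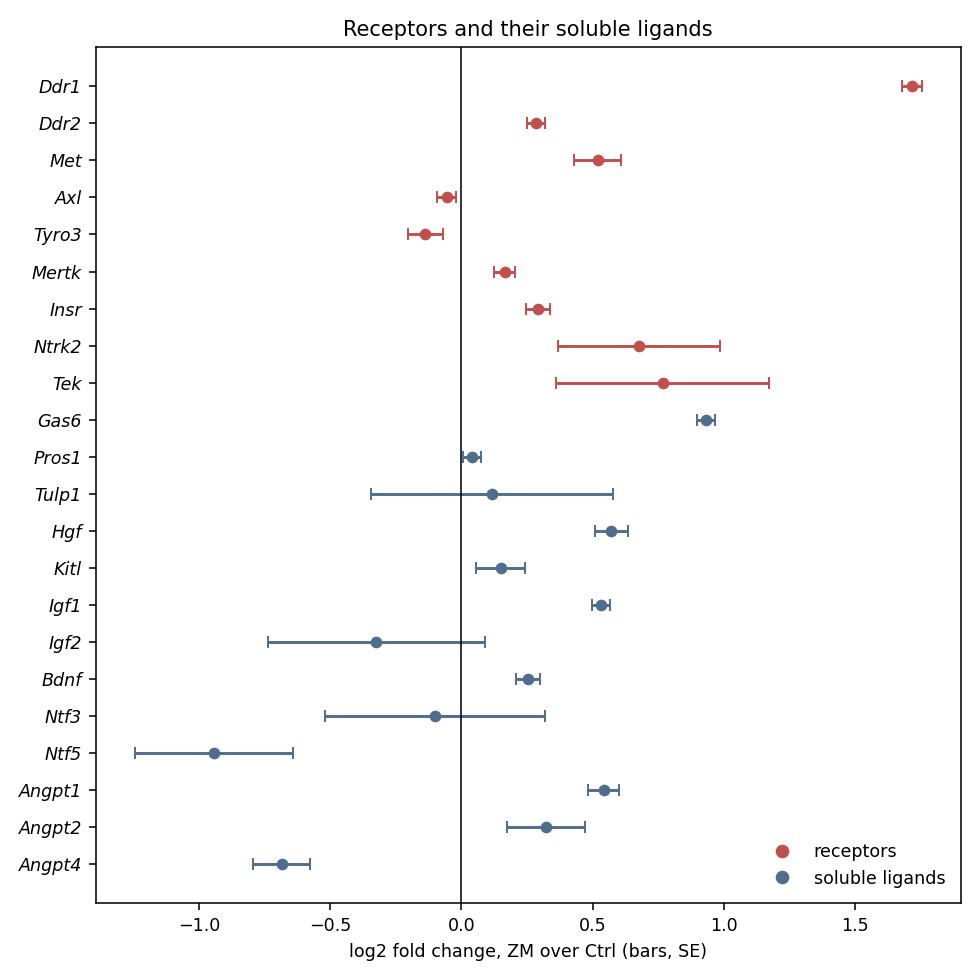
Log2 fold change of ZM over Ctrl (horizontal axis, points with SE bars, n = 3 libraries each) for the 9 kinases that passed the filter, in red above, and the 13 tested soluble ligands, in blue below. Gas6 lies at 0.93 while its receptors Axl, Tyro3 and Mertk lie between -0.14 and 0.17, and Ntf5 and Angpt4 lie below 0.

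Met (ENSMUSG00000009376, chr6:17463800-17573980, plus strand), the hepatocyte growth factor receptor, was a low transcript. It was at 9.85, 10.2 and 10.2 CPM with ZM and at 6.88, 7.81 and 6.36 CPM in Ctrl. All ZM libraries were above all Ctrl libraries, and Ctrl varied more among its libraries than ZM did. The log2 fold change was 0.52 ± 0.09 (SE) or 1.43-fold, on 465 to 574 counts with ZM and 289 to 530 in Ctrl. On log2(FPKM + 1), a scale that compresses low genes, it was 0.31.

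Hgf, the ligand of MET, rose as well, to 28.5 ± 1.84 CPM with ZM, against 19.2 ± 0.915 CPM in Ctrl (log2 fold change 0.57 ± 0.06, adjusted p = 1.3e-06, edgeR). Exons of Gm43489 on the same strand cover 6.74% of Hgf. Spint1, which encodes an inhibitor of the proteases that activate hepatocyte growth factor and is itself known from epithelia, fell the most of the partner list below, to 5.83 ± 0.511 CPM with ZM, against 37.8 ± 4.58 CPM in Ctrl (-2.69 ± 0.10, 6.46-fold lower, adjusted p = 1.8e-10, edgeR). Cdh1, which made up most of the epithelial marker sum given for Ddr1, was lower in the same libraries. The other 5 epithelial markers were too low to be tested and shared no direction. Epcam and Krt5 had counts in ZM libraries alone, and Krt8 in a Ctrl library alone. The part of epithelial transcripts in the Spint1 difference was not tested.

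Insr (ENSMUSG00000005534, chr8:3122061-3279617, minus strand), the insulin receptor, was at 66.2, 65.9 and 71.5 CPM with ZM and at 57.1, 52.9 and 56.4 CPM in Ctrl. All ZM libraries were above all Ctrl libraries, the third ZM library the furthest. This is 1.22-fold, or 0.29 ± 0.05 (SE) on the log2 scale. Its close relative Igf1r, listed among the other kinases, rose more (log2 fold change 0.42 ± 0.04, adjusted p = 6.1e-08, edgeR), and the FPKM of Insr was 56.2% ± 1.39 of that of Igf1r with ZM and 61.4% ± 2.46 in Ctrl (SD, n = 3 each).

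Among ligands that reach INSR, Igf1 rose to 505 ± 6.81 CPM with ZM, against 349.5 ± 13.2 CPM in Ctrl (log2 fold change 0.53 ± 0.03, adjusted p = 1.9e-09, edgeR). Igf2 was near the filter bound, at 0.345 CPM with ZM and 0.412 CPM in Ctrl, and was not called (adjusted p = 0.56, edgeR), and Gm49394 matches 76.2% of its longest transcript, so its counts are uncertain. The insulin genes Ins1 and Ins2 were not analysed here. Inside the cell, the insulin receptor's adaptors Grb14 and Grb10, which hold its kinase back, both rose. Grb14 was at 146 ± 1.06 CPM with ZM and 73.2 ± 4.76 CPM in Ctrl (log2 fold change 0.99 ± 0.04, adjusted p = 1.6e-11, edgeR), and Grb10 at 283 ± 5.34 CPM with ZM and 189 ± 7.67 CPM in Ctrl (0.59 ± 0.04, adjusted p = 1.1e-09, edgeR). Its substrates Irs1 (0.52 ± 0.06, adjusted p = 4.7e-06) and Irs2 (0.46 ± 0.06, adjusted p = 7.2e-06, edgeR) rose too, and exons of Gm9747 on the opposite strand cover 30.9% of Irs1.

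Ntrk2 (ENSMUSG00000055254, chr13:58806569-59133970, plus strand), the BDNF receptor of neurons, was close to the limit of detection. It had 36, 26 and 30 counts with ZM and 19, 22 and 22 counts in Ctrl, or 0.617, 0.572 and 0.602 CPM with ZM and 0.452, 0.324 and 0.360 CPM in Ctrl. The ZM libraries were all above the Ctrl libraries in CPM, and the log2 fold change of 0.68 ± 0.31 (SE) had a wide error. Of 5 Schwann cell and glial markers 4 were tested and 1 fell, with a summed level of 9.08 to 10.3 CPM with ZM and 10.2 to 12.2 CPM in Ctrl.

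Bdnf itself was far above its receptor and rose, to 47.6 ± 2.12 CPM with ZM, against 40.0 ± 1.27 CPM in Ctrl (log2 fold change 0.25 ± 0.05, adjusted p = 0.00025, edgeR), and exons of Gm45346 on the opposite strand cover 14.4% of it. Ntf5, the neurotrophin that shares this receptor, fell to 0.458 ± 0.127 CPM with ZM, against 0.878 ± 0.204 CPM in Ctrl (-0.94 ± 0.30, adjusted p = 0.017, edgeR). That call was lost without ZM replicate 3 (adjusted p = 0.073) and without Ctrl replicate 3 (adjusted p = 0.10), and the alternatives ran from 0.0093 to 0.12. Ntf3 was at 0.304 CPM with ZM and 0.324 CPM in Ctrl and was not called (adjusted p = 0.87, edgeR). The co-receptor Ngfr, which binds all neurotrophins, rose to 8.50 ± 0.933 CPM with ZM, against 4.52 ± 0.649 CPM in Ctrl (0.91 ± 0.12, adjusted p = 6.8e-06, edgeR).

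Tek (ENSMUSG00000006386, chr4:94739289-94874976, plus strand), the angiopoietin receptor of endothelium, had 14, 20 and 19 counts with ZM and 8, 14 and 13 counts in Ctrl. That is 0.240, 0.440 and 0.381 CPM with ZM and 0.190, 0.206 and 0.213 CPM in Ctrl. The ZM libraries were all above the Ctrl libraries, the first ZM library only just. The log2 fold change was 0.77 with an SE of 0.41, and on the scale of the filter Tek reached the bound of 0.189 CPM in 3 ZM libraries and 2 Ctrl libraries. Endothelial markers were lower with ZM: 4 of 5 tested fell, and Pecam1 was not called (adjusted p = 0.36, edgeR). Their summed level was 4.88 to 5.70 CPM with ZM and 9.07 to 10.5 CPM in Ctrl. Most of this sum was Vwf, at 3.77 CPM with ZM and 6.43 CPM in Ctrl. The untested Cldn5 was at 0 counts in 3 ZM libraries and in 2 of 3 Ctrl libraries.

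The angiopoietins were much higher than their receptor. Angpt1, the activating ligand, rose to 118 ± 6.84 CPM with ZM, against 81.3 ± 6.44 CPM in Ctrl (log2 fold change 0.54 ± 0.06, adjusted p = 2.2e-05, edgeR), with exons of Gm17473 on the opposite strand over 14.2% of it. Angpt4 fell to 6.50 ± 1.00 CPM with ZM, against 10.4 ± 0.906 CPM in Ctrl (-0.68 ± 0.11, adjusted p = 8.7e-05, edgeR). Angpt2, often an antagonist, was at 5.88 ± 1.03 CPM with ZM and 4.72 ± 0.848 CPM in Ctrl and was not called (0.32 ± 0.15, adjusted p = 0.099, edgeR). It passed without ZM replicate 1 or without Ctrl replicate 1 (adjusted p = 0.018 each) and with no filter on low counts (adjusted p = 0.025), and all 15 alternatives ran from 0.018 to 0.31. Of 5 pericyte markers 4 were tested, 1 rose (Rgs5, at 5.99 CPM with ZM and 1.43 CPM in Ctrl) and 3 fell. The summed level was 42.5 to 46.5 CPM with ZM and 115 to 127 CPM in Ctrl. Most of this sum was Cspg4, at 36.1 CPM with ZM and 114 CPM in Ctrl. The part of pericyte transcripts in the angiopoietin values was not tested.

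Kit (ENSMUSG00000005672, chr5:75574916-75656722, plus strand), the stem cell factor receptor of mast cells, melanocytes and blood progenitors, had 0, 0 and 2 counts with ZM and 2, 2 and 0 counts in Ctrl. It was below the filter, every library lay under the 3 counts that a count of 0 allows (0.0429 to 0.0702 CPM), and no fold is given. Of the cells that carry it, 4 mast cell markers in the table summed to 0.201 to 0.528 CPM with ZM and 0.0952 to 0.213 CPM in Ctrl, with none tested. The 4 melanocyte markers, of which Mitf made up most, summed to 33.9 to 37.0 CPM with ZM and 33.9 to 36.6 CPM in Ctrl, and none was called. Its ligand Kitl, a product of stromal cells, was at 37.7 ± 1.05 CPM with ZM and 34.1 ± 4.88 CPM in Ctrl and was not called (0.15 ± 0.09, adjusted p = 0.24, edgeR). It passed without Ctrl replicate 1 (0.26, adjusted p = 0.0012) and with no filter on low counts (0.15, adjusted p = 0.025), and its alternatives ran from 0.0012 to 0.53.

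Counted together, 16 soluble ligands of the 10 kinases were listed, 14 were in the table and 13 were tested. Of these 5 rose (Gas6, Hgf, Igf1, Bdnf and Angpt1), 2 fell (Angpt4 and Ntf5) and 6 did not pass, with a median log2 fold change of 0.15 against -0.00 over all genes. The share called was 53.8%, near the 45.3% of all tested genes. On log2(FPKM + 1) in limma 6 rose and 1 fell. In that fit 62.8% of the calls over all genes were higher with ZM. Tub, an untested phagocytosis ligand of MERTK, was at 0.169 CPM with ZM and 0.0525 CPM in Ctrl.

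In FPKM the order of the kinases with ZM was Axl, Ddr2, Ddr1, Mertk, Insr, Tyro3, Met, Tek, Ntrk2 and Kit, and in Ctrl it was the same except that Mertk stood above Ddr1. Means in that ZM order ran from 58.0 FPKM for Axl, 48.3 for Ddr2, 26.2 for Ddr1 and 22.0 for Mertk through 5.04 for Insr, 2.22 for Tyro3 and 1.34 for Met to 0.0766 for Tek and 0.0316 for Ntrk2. The Ctrl means were 57.9 FPKM for Axl, 38.1 for Ddr2, 18.9 for Mertk, 7.65 for Ddr1, 3.95 for Insr, 2.34 for Tyro3, 0.894 for Met, 0.0422 for Tek and 0.0192 for Ntrk2. Neighbours among the first 9 of either order did not overlap in their ranges over the libraries. The 10 levels summed to 163 ± 2.17 FPKM with ZM and 129.7 ± 2.64 FPKM in Ctrl, of which Axl took 35.5% ± 0.741 with ZM and 44.6% ± 0.822 in Ctrl, and Ddr1 16.1% ± 0.462 with ZM and 5.90% ± 0.0885 in Ctrl (SD, n = 3 each).

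Among 58 receptor tyrosine kinases ranked by mean FPKM, Axl was at rank 3 and Ddr2 at rank 4 in both groups, below Pdgfrb and Csf1r. Csf1r is also on the macrophage list and is counted in both. Ddr1 was at rank 8 with ZM and rank 10 in Ctrl, and Mertk at rank 9 with ZM and rank 8 in Ctrl. Of the other 48 kinases 36 were tested, and of these 20 rose and 8 fell, which is 77.8% called, against 45.3% of all genes, with a median log2 fold change of 0.31. As this list was chosen with earlier results known, the difference in shares is a description and was not tested.

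The largest rises of at least 1 FPKM among them were Ephb6, a kinase-dead ephrin receptor (log2 fold change 1.14 ± 0.07, adjusted p = 4.5e-10), Fgfr2, a fibroblast growth factor receptor of bone-forming cells (1.09 ± 0.05, adjusted p = 5.0e-11), and Ephb3 (1.01 ± 0.08, adjusted p = 1.8e-08, edgeR). Fgfr2 was at 82.6 CPM with ZM and 38.9 CPM in Ctrl. Under the same limit the largest falls were Styk1, at 6.63 CPM with ZM and 13.3 CPM in Ctrl, Aatk (log2 fold change -0.40 ± 0.08) and the ephrin receptor Epha2 (-0.35 ± 0.06), with adjusted p-values from 7.5e-08 to 0.00048 in edgeR. Below 1 FPKM, the largest rise and the largest fall are named after their values were seen. Ror1, a Wnt5a receptor, was at 0.519 FPKM with ZM and 0.0728 FPKM in Ctrl (log2 fold change 2.76 ± 0.20, adjusted p = 9.0e-09, edgeR). Kdr, a VEGF receptor of endothelium, was at 0.330 FPKM with ZM and 0.752 FPKM in Ctrl (-1.24 ± 0.12, adjusted p = 4.0e-07, edgeR), beside the lower endothelial markers given for Tek.

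**Figure D4:**
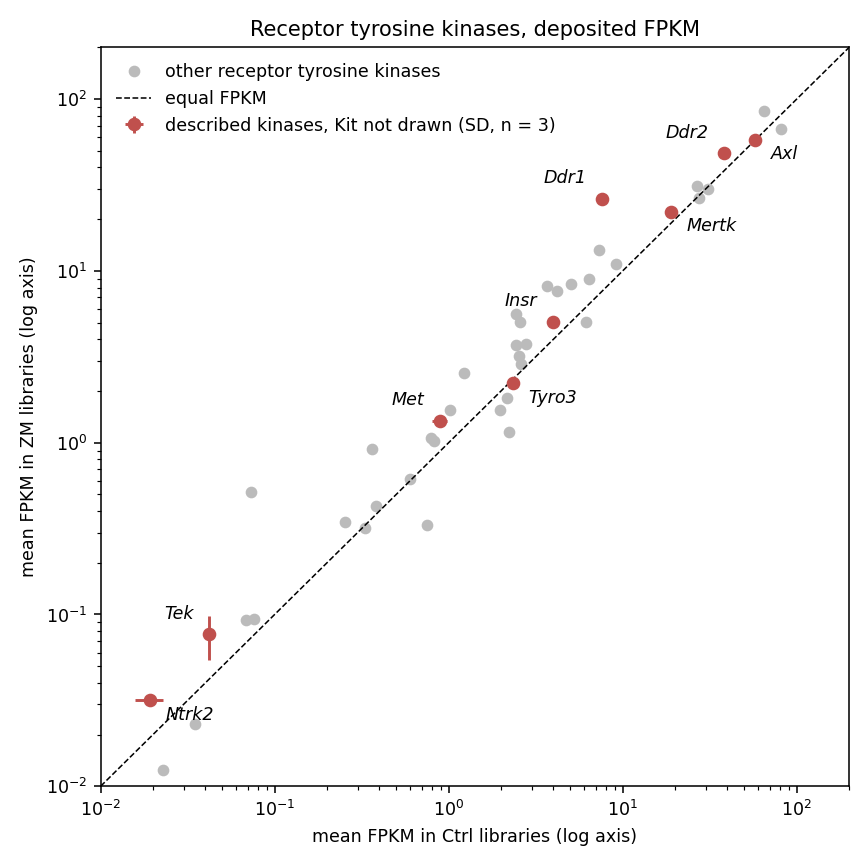
Mean deposited FPKM of receptor tyrosine kinases with ZM (vertical log axis) against Ctrl (horizontal log axis), with the dashed line marking equal levels; red points are 9 of the 10 kinases described, with SD bars (n = 3), and grey points are 36 others, those with at least 0.01 FPKM in both groups. Ddr1, at 26.2 FPKM with ZM and 7.65 FPKM in Ctrl, lies further above the line than Ddr2, Mertk and Insr, and Axl lies on it.

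Of 26 partners, sheddases and inhibitors of the kinases 24 were tested, of which 5 rose and 13 fell, with a median log2 fold change of -0.14. Calls made up 75% of those tested, against 45.3% of all tested genes. Beside Spint1, the largest falls of at least 1 FPKM were the feedback inhibitor Errfi1, at 78.2 ± 3.21 CPM with ZM and 199 ± 10.9 CPM in Ctrl (log2 fold change -1.35 ± 0.04, adjusted p = 4.6e-13, edgeR), and Lrig1, whose product promotes receptor degradation, at 61.7 ± 2.25 CPM with ZM and 117 ± 3.79 CPM in Ctrl (-0.93 ± 0.04, adjusted p = 1.5e-11, edgeR). Both are best known as restraints on the EGF receptor family. Ptprb, a phosphatase that acts on TEK in endothelium, fell more but lay below 1 FPKM and is named after its values were seen (2.73 CPM with ZM and 7.47 CPM in Ctrl, -1.45 ± 0.13, adjusted p = 1.1e-07, edgeR). Of 5 tested endothelial markers 4 fell in the same libraries. The part of endothelial transcripts in the Kdr and Ptprb falls was not tested.

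Adaptors and effectors that bind the phosphorylated receptors split as 13 rises and 6 falls of 26 tested, with a median log2 fold change of 0.10. The share called was 73.1%, against 45.3% of all tested genes. Beside Irs1 and Irs2, the third of the largest rises was Nck2 (0.51 ± 0.07, adjusted p = 1.0e-05, edgeR), an adaptor gene whose longest transcript is matched over 41.2% by Gm6226 and whose counts are uncertain for that reason. Dok2 fell to 5.86 ± 0.670 CPM with ZM, against 12.5 ± 0.802 CPM in Ctrl (-1.09 ± 0.09, adjusted p = 5.8e-08, edgeR). Plcg2 (-0.68 ± 0.05, adjusted p = 5.9e-09) and Dok1 (-0.62 ± 0.04, adjusted p = 2.8e-09, edgeR) fell too. Dok2 and Plcg2 are best known from blood cells, and the 10 macrophage markers fell in the same libraries. Their part in these falls was not tested.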

How the data were processed

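3 ZM and 3 Ctrl sequencing libraries were grouped by their titles. HISAT2 2.2.1, DESeq2, Subread with featureCounts 2.0.3 and the build mm10 appear in the submitters' processing notes. Their settings, the annotation included, were not given in the sources used here. Count values deposited by the authors are whole numbers that were not normalized, per the file headers. The authors' FPKM is the count scaled to the library total and to gene length, a length that came out whole within 0.01 bases for 100% of genes.

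Counts passing filterByExpr (minimum count 10) entered edgeR 4.0.16 under R 4.3.3 (TMM scaling, robust quasi-likelihood F test, Benjamini-Hochberg adjustment over 17533 genes), after a check on simulated data. CPM values use TMM-scaled library sizes, and likeness used log2 CPM with a prior count of 2. No library was a copy of another: within a group, pairs gave a chi-square of 5.30 to 8.98 per degree of freedom. A count of 0 allows up to 3 counts, for counting error only.

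The 10 kinases, the gene lists and the markers were chosen with earlier results of these data known. Named genes are the 10 kinases, all tested soluble ligands, up to 3 largest rises and falls per list among called genes of at least 1 FPKM, and the 3 genes nearest to Ddr1 and to Ddr2. Coordinates and exon overlaps are from GENCODE M21 on GRCm38 (mm10), 1-based. Transcripts were compared by BLAST 2.17.0 (97% identity over 100 bases). As alternatives, the fit was repeated with a replicate block, without each library in turn, with DESeq2 1.42.0, with other scalings and filters, and with limma 3.58.1 on log2(FPKM + 1) and log2(FPKM + 0.1).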

Additional observations from a re-analysis of the deposited data

How the results depend on the processing

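Under 15 alternatives the counts of called genes, over all genes and in each list, stayed within 1.5 times the values given. Without each library in turn 6813 to 7712 genes were called, and 6 to 10 soluble ligands, 6 to 7 collagens, 27 to 28 other kinases, 15 to 18 partners, 16 to 18 adaptors and 7 to 9 other collagen receptors. Of 822 values of single named genes, 811 kept their side of the threshold, 3 lost it (Ntf5), 8 gained it (Pros1, Kitl and Angpt2) and 0 reversed. These 56 genes include the 9 tested kinases, which were chosen on this contrast, and many of the others were named because they were called. The count therefore describes the processing and is no test of these genes. The log2 fold change of Ddr1 ran from 1.65 to 1.78, of Ddr2 from 0.26 to 0.34, of Met from 0.31 to 0.61 and of Axl from -0.08 to 0.00. Libraries with the same replicate number did not deviate together (correlations of -0.04, 0.06 and -0.01), and not every library correlated best with its own number. No pairing by number was seen, but a check on 3 libraries per group cannot exclude a shared preparation. With the replicate number as a block 7752 genes were called, with 7 ligands, 6 collagens, 28 other kinases, 18 partners, 18 adaptors and 9 other collagen receptors. Depth limits Kit, Tek and Ntrk2, whose counts reached at most 36.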
